A study of Mus musculus with 8 samples.

Results

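Accessible regions at the loci of 9 transcription factor genes of the B lineage were followed over the first 2 h after induction of the transcription factor Ikaros (IKZF1) in mouse pre-B cells. The genes were Ebf1, Pax5, Tcf3, Foxo1, Irf4, Irf8, Spib, Lef1 and Pou2af1. A peak was assigned to a locus when its summit lay in the gene body or within 20 kb of it (GRCm38, GENCODE M21). Peaks of the 8 deposited lists that shared at least 1 base were merged into regions, which gave 174718 regions in all and 248 at these loci. Ebf1 held 68 of them, Lef1 37, Pax5 34, Foxo1 34, Irf8 20, Tcf3 17, Spib 15, Irf4 12 and Pou2af1 11. A region is named here by its gene and its order along the chromosome, as in Ebf1-41.

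ATAC-seq, in which a transposase cuts and tags open DNA, was performed on the mouse pre-B line B3, whose cells expressed Ikaros-ERt2 from a retroviral vector and had been sorted for the vector's GFP. ERt2 is a hormone-binding domain that holds the fused protein outside the nucleus until 4-hydroxytamoxifen (4-OHT) is added. The 4 groups were untreated cells (0 h) and cells exposed to 500 nM 4-OHT for 30 min, for 1 h and for 2 h, each with 2 libraries. The 0 h cells carried the same construct and received no 4-OHT, so a response to 4-OHT or its solvent and a response to Ikaros cannot be told apart. The labels do not say whether replicates were separate cultures, so p-values measure the spread between these libraries, which may be technical.

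The gene products form the network that specifies and maintains B cells. EBF1, the E protein E2A encoded by Tcf3, and FOXO1 specify the lineage in lymphoid progenitors, and PAX5 commits cells to it by activating B cell genes and repressing those of other lineages. IRF4 and IRF8, which bind DNA together with the ETS factors PU.1 or SPIB, promote the transition from cycling pre-B cells to small pre-B cells that rearrange light chain genes. LEF1 is an HMG-box factor that can pair with β-catenin, and POU2AF1 (OBF-1) is a B cell coactivator that binds the octamer factors POU2F1 and POU2F2. Ikaros itself is a zinc finger factor that acts in the same cells as a regulator of pre-B differentiation and as a tumor suppressor in leukemia. Most such genes are controlled by enhancers far from their start sites, and ATAC-seq peaks mark where such elements are open.

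Most of the regions that changed, or that appeared or disappeared with many fragments, are shown first, because they carry the results that follow. Of the 6 regions lower in rank at 2 h, Ebf1-63 and Pou2af1-9 are not shown, since their windows overlap an exon. Each sequence is 200 bp of the GRCm38 plus strand centred on the summit in the earliest library with a peak, and capitals mark the 4-letter words GGAA and GGGA of the Ikaros binding core on either strand. These words also occur in the sites of ETS factors and EBF1. The 4 lower regions shown are Ebf1-41 (chr11:44920225-44920424) and Ebf1-60 (chr11:45002111-45002310) in introns of Ebf1, Pax5-32 (chr4:44727627-44727826) upstream of Pax5 and Irf8-10 (chr8:120747437-120747636) in an intron of Irf8.
Ebf1-41: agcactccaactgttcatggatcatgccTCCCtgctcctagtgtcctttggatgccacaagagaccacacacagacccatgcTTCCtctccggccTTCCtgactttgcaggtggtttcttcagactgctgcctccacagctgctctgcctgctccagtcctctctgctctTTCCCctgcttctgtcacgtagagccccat
Ebf1-60: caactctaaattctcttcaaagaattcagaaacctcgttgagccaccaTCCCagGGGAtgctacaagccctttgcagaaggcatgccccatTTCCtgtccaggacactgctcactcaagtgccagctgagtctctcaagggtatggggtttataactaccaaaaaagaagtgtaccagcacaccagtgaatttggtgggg
Pax5-32: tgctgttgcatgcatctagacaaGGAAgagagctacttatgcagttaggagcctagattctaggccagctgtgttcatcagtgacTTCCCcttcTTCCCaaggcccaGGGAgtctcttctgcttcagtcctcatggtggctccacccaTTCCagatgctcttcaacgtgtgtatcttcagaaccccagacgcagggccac
Irf8-10: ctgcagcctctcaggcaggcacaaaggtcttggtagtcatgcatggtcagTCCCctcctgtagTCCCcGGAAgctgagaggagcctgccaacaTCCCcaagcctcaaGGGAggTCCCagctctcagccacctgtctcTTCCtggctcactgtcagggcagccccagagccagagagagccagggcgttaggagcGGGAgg

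Higher in rank at 2 h were Ebf1-2 (chr11:44607004-44607203) upstream of Ebf1, Ebf1-36 (chr11:44901789-44901988) in an intron of Ebf1 and Tcf3-8 (chr10:80423683-80423882) in an intron of Tcf3.
Ebf1-2: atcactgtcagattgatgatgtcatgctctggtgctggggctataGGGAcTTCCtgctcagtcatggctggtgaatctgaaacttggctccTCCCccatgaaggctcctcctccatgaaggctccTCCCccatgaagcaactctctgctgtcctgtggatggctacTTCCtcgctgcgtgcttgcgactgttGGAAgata
Ebf1-36: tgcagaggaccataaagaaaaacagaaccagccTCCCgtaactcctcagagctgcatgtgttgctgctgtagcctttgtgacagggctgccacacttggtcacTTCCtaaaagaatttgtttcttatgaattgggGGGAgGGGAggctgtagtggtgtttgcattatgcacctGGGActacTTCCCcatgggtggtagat
Tcf3-8: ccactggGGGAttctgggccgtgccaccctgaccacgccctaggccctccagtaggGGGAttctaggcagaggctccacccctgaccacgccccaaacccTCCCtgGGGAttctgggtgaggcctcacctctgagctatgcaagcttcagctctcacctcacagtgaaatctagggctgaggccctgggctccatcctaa

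Listed in both 0 h libraries and in neither 2 h library were Ebf1-35 (chr11:44901099-44901298) and Pax5-19 (chr4:44702340-44702539), both intronic, and Lef1-6 (chr3:131106983-131107182) upstream of Lef1. Lef1-15 (chr3:131117551-131117750), in an intron of Lef1, was listed in both 2 h libraries and in neither 0 h library.
Ebf1-35: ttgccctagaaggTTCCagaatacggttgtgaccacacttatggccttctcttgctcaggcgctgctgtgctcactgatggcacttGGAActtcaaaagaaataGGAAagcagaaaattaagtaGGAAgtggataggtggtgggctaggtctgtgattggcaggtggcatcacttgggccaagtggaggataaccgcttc
Pax5-19: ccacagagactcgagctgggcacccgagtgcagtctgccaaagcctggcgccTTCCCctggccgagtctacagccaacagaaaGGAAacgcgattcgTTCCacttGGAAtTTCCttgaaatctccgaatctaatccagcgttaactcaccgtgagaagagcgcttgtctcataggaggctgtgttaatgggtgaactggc
Lef1-6: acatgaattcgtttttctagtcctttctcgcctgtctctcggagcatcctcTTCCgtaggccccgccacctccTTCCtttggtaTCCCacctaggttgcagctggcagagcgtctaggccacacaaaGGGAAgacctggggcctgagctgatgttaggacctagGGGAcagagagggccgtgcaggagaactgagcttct
Lef1-15: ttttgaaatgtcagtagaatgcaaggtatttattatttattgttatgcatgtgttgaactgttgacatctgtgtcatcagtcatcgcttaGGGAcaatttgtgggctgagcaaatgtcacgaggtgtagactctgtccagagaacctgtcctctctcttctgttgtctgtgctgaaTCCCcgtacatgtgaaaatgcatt

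Core words were counted in each region, as a description without a test. The 6 member regions lower at 2 h held a median of 5.5 core words per 200 bp (range 3 to 8) and the 3 higher regions a median of 6.0 (range 4 to 7), beside 5.0 over the 70 member regions with a peak in all lists and 4.0 over all 47875 such regions in the genome. Over the whole genome the medians were 6.0 in lower and 3.0 in higher regions. The EBF word, TCCC followed after any 2 bases by GGGA, which contains core words and reads the same on both strands, was found in 6 of the 70 member regions (8.57%, beside 2.18% of all), among them Ebf1-60, which fell, and Tcf3-8, which rose. The E-box of E proteins (CAGGTG or CACCTG) was in 20 of the 70 (28.6%, beside 16.6% of all), the Runt word (TGTGGT or ACCACA) in 21 (30%, beside 23.3%) and the forkhead word (TGTTTAC or GTAAACA) in 0 (beside 2.21%). Each word was searched on both strands of the same 200 bp.

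Peak height was read as the fold of the fragment pileup at the summit over the local background, with 1 added to each. It was expressed as a percentile among all peaks of the same list, so that 100 is the tallest peak of a library. The number of fragments at the summit was recovered from the deposited fold and −log10 p-value. Fragment numbers are not scaled for depth, and the background per library, in expected fragments at a base, was 0.389 and 0.260 fragments before treatment, 0.405 and 0.305 after 30 min, 0.366 and 0.312 after 1 h, and 0.337 and 0.317 after 2 h. Lists held 85903 to 103897 peaks, of which 111 to 147 lay at the 9 loci. For the test, the regions that every list shared were ranked among themselves, list by list, ranks were turned into normal scores, and 1 limma model with the 4 times was fitted to all 47875 of them. A shift is the difference of normal scores between 2 times, on which 1 unit is the SD of all ranked regions, and a region was called lower or higher at a Benjamini-Hochberg adjusted p under 0.01. Ranks are relative, and a region that rises does so against the others.

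Of the 248 member regions, 70 (28.2%) had a peak in all 8 lists, beside 27.4% of all regions, and only these could be ranked. They comprised 16 at Ebf1, 10 at Lef1, 9 at Pax5, 8 at Tcf3, 7 at Irf8, 6 at Foxo1, 5 at Irf4, 5 at Pou2af1 and 4 at Spib. Normal scores of replicates correlated at 0.878 to 0.922 over the 70 regions, a description across regions and not across samples. The pre-B label was checked against start-site peaks of marker genes. Of 8 pre-B markers 6 to 7 had a peak within 1 kb of a start site in each list, with Vpreb1 in the 0 h and 30 min lists only, while the 4 myeloid markers had none and the 3 erythroid markers 0 to 1. Of 4 T cell markers 1 to 2 had a peak, Gata3 in each list and Cd3g at percentile 21.2 and no peak at 0 h but 88.5 and 89.0 at 2 h, and the part of such genes in the results was not tested.

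**Figure D1:**
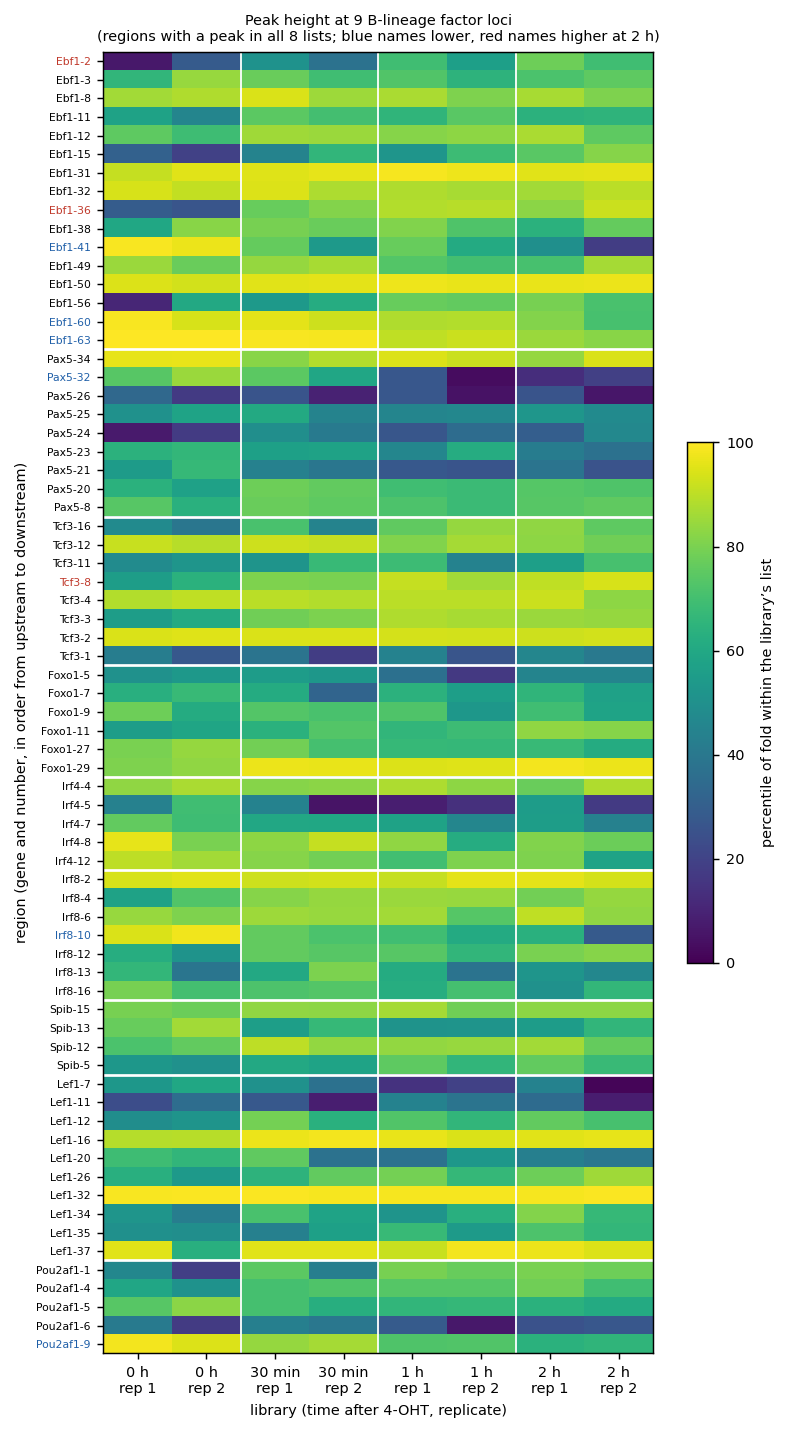
Percentile of peak fold (colour, 0 to 100) for the 70 member regions with a peak in all 8 lists (rows, grouped by gene) in each library (columns). Most rows keep their colour from left to right, and the blue names (6 regions lower at 2 h) and red names (3 higher) mark the rows past adjusted p < 0.01.

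At 2 h, 6 of the 70 regions were lower in rank (8.57%, beside 4.71% of all ranked regions) and 3 were higher (4.29%, beside 2.28%). The lower regions were Ebf1-41, Ebf1-60, Ebf1-63, Pax5-32, Irf8-10 and Pou2af1-9, and the higher regions were Ebf1-2, Ebf1-36 and Tcf3-8. At 1 h, 5 regions were lower (7.14%, beside 2.51%) and 1 was higher (1.43%, beside 1.10%), namely the lower regions of 2 h without Ebf1-60, and Ebf1-36. The unadjusted limma p was under 0.05 for 32 of the 70 at 2 h (45.7%, beside 34.5% of all) and for 27 at 1 h (38.6%, beside 30.4%). At 30 min none passed the threshold in either direction (0 of 47875 in the genome), while 17 of the 70 (24.3%, beside 19.4%) had an unadjusted limma p under 0.05. Between neighbouring times, 1 h against 30 min and 2 h against 1 h, limma called 0 of the 70, with 8 (11.4%, beside 11.3% of all) and 3 (4.29%, beside 5.91%) at an unadjusted p under 0.05. The median shift of the 70 regions at 2 h was −0.22, beside 0.06 over all ranked regions. The size of this contrast depended on the scale and the filter. By −log10 p-value the medians were −0.13 and 0.09, by recovered fragments −0.11 and 0.07, and with ranks among all peaks of a list −0.06 and 0.17. With regions in at least 2 lists (171 members, absent peaks scored lowest) the member median was 0.09, beside 0.08 over all.

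These calls rested on few libraries. With 0 h replicate 2 left out none of the members was called at 2 h, nor any of 52065 regions, although 26 of 78 members (33.3%, beside 26.3%) had an unadjusted p under 0.05. The other 0 h library and either 2 h library, when left out, also gave fewer calls at 2 h, among the members and over all regions. Leaving out either library of 30 min or 1 h lowered both counts less. At 1 h no region of the genome was called without either library of 0 h or 1 h. Leaving out a library of 30 min or 2 h gave fewer 1 h calls, again among members and over all regions. No shift of the 9 called regions changed sign in any of these fits, though these regions were picked by the full fit. Leaving out a library of 30 min or 1 h hardly alters the 2 h shift. Across the left-out fits that shift lay between −3.59 and −2.72 at Ebf1-41, −1.98 and −1.16 at Ebf1-60, and 1.18 and 2.12 at Ebf1-2. The share of lower calls depended on the scale, since ranks taken among all peaks of a list gave 4 lower and 5 higher members (44.4% lower, beside 66.7% here), and 52.1% lower over the genome beside 67.4% here.

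**Figure D2:**
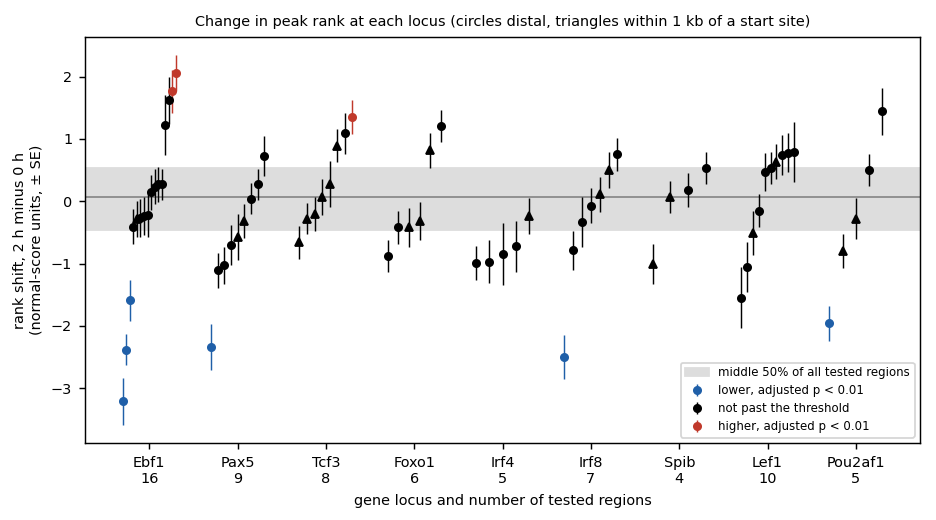
Shift in normal score from 0 h to 2 h with its SE for each ranked region, by locus; circles are distal and triangles lie within 1 kb of a start site. The 6 lower regions (blue, from −3.21 to −1.59) and 3 higher regions (red, 1.35 to 2.05) all lie outside the grey band that holds the middle 50% of all ranked regions (−0.47 to 0.53).

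All 9 called regions were distal. The 49 distal member regions gave 6 lower (12.2%, beside 5.36% of all distal regions) and 3 higher (6.12%, beside 2.87%), and the 21 member regions within 1 kb of an annotated start site gave 0 and 0 (beside 3.18% and 0.903% of all such regions). Ranked regions at the start sites of the factor genes themselves had shifts between −0.80 and 0.63 at 2 h. The Ebf1 start-site region Ebf1-8, 97 bp upstream, stood at percentiles 86.2 and 88.2 before treatment, 94.3 and 85.5 after 30 min, 87.3 and 80.8 after 1 h, and 87.0 and 80.6 after 2 h, a shift of −0.29 ± 0.29 (SE, adjusted p = 0.514). At Irf4, the region Irf4-4, which spans the start, was at 83.3 and 87.3 at 0 h and at 77.3 and 88.1 at 2 h (−0.24 ± 0.29, adjusted p = 0.598). For both, the values of the 2 times overlapped. Nearest to the starts of other genes were Pax5-25 (−0.32 ± 0.27), Tcf3-11 (0.27 ± 0.37), Foxo1-7 (−0.32 ± 0.31), Irf8-6 (0.11 ± 0.28), Lef1-12 (0.63 ± 0.28) and Pou2af1-6 (−0.28 ± 0.33), none past the threshold. Further ranked regions within 1 kb of these starts were Pou2af1-5 (−0.80 ± 0.27, adjusted p = 0.0613), Tcf3-12 (−0.66 ± 0.26), Pax5-26 (−0.58 ± 0.37) and Lef1-11 (−0.51 ± 0.35), and these too did not pass. At Spib the region nearest to the start, Spib-11, had no peak in 0 h replicate 1 and was not ranked.

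Ebf1, which encodes early B cell factor, held 5 of the 9 calls, 3 lower and 2 higher. Its ranked regions fell into 2 stretches of the gene: 6 between 10.2 kb upstream and 39.7 kb into the gene, and 10 from 264.2 kb to 390.9 kb, at the 3′ part. Between them lay 15 regions, none with a peak in more than 7 lists. The largest fall of any ranked member was at Ebf1-41 (chr11:44920071-44920450), in an intron 303008 bp from the start. Its peak was in the top percentiles of both 0 h lists, at 99.0 and 96.9, and stood at 76.4 and 53.7 after 30 min, 76.8 and 61.3 after 1 h, and 49.9 and 18.1 after 2 h. Fragments at its summit numbered 92 and 59 before treatment, 24 and 13 after 30 min, 22 and 15 after 1 h, and 12 and 8 after 2 h. Every treated library was below both 0 h libraries, and most of the drop in fragments was present at 30 min. The shift was −2.16 ± 0.38 (SE) at 30 min (adjusted p = 0.0276), −2.04 at 1 h (adjusted p = 0.00958) and −3.21 at 2 h (adjusted p = 0.00135).

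Ebf1-63 (chr11:45008054-45008399), whose summit lay just past the 3′ end of the gene, followed a slower course. It was at percentile 99.9 in both 0 h lists, 99.2 and 98.5 after 30 min, 90.4 and 91.9 after 1 h, and 85.0 and 82.4 after 2 h, with 119 and 93 fragments before treatment, against 39 and 31 after 2 h. The values of the 4 times did not overlap. Its shift was −0.77 ± 0.25 at 30 min (adjusted p = 0.135), −1.90 at 1 h (adjusted p = 0.00293) and −2.38 at 2 h (adjusted p = 0.00106). Ebf1-60 (chr11:45002118-45002325), in an intron 384894 bp from the start, had percentiles of 99.1 and 93.9 before treatment, 95.9 and 92.2 after 30 min, 88.2 and 88.4 after 1 h, and 81.3 and 71.0 after 2 h (−1.59 ± 0.33, adjusted p = 0.00964). Its 2 h libraries were below all others, while its 0 h and 30 min libraries overlapped. This call was the closest to the threshold and was lost in each fit that left out a library, and with ranks among all peaks of a list.

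Of the 2 Ebf1 regions that rose, Ebf1-36 (chr11:44901770-44902074) was the larger. It stood at percentiles 29.0 and 26.5 before treatment, 76.7 and 81.3 after 30 min, 88.3 and 89.3 after 1 h, and 82.7 and 92.1 after 2 h. Its fragments rose from 12 and 9 at 0 h to 27 and 28 after 30 min, 44 and 41 after 1 h, and 37 and 47 after 2 h. No treated library overlapped the 0 h libraries, and the shift was 1.62 ± 0.29 at 30 min (adjusted p = 0.0287), 2.12 at 1 h (adjusted p = 0.00308) and 2.05 at 2 h (adjusted p = 0.00221). Its neighbour Ebf1-35 (chr11:44901051-44901382), with 387 bases between them, did the reverse. Ebf1-35 had 38 and 34 fragments at 0 h (percentiles 86.3 and 88.8) and 14 and 9 at 30 min (45.1 and 15.5). It had no peak in any list of 1 h or 2 h and so was not ranked. With regions in at least 2 lists, absent peaks being scored lowest, its 2 h shift was −2.45, beside −2.25 at Ebf1-41. The 2 peaks on either side of this short interval were thus tall at different times.

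Ebf1-2 (chr11:44606988-44607182), 10213 bp upstream of the start, was weak at 0 h, with percentiles of 6.48 and 28.7, and stood at 50.8 and 37.5 after 30 min, 69.2 and 56.5 after 1 h, and 78.0 and 69.2 after 2 h. Its fragments were 8 and 9 before treatment, against 32 and 24 after 2 h, and the shift was 1.76 ± 0.35 (adjusted p = 0.00836). This call too was lost in each fit that left out a library. The intronic region Ebf1-15 moved in the same direction (7 and 5 fragments at 0 h, 16 and 20 at 2 h, shift 1.62) without passing the threshold (adjusted p = 0.0174). The strongest Ebf1 regions that were not called, Ebf1-31 and Ebf1-50, were above percentile 91 in every library, from 91.4 to 98.8 and from 93.0 to 97.3.

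**Figure D3:**
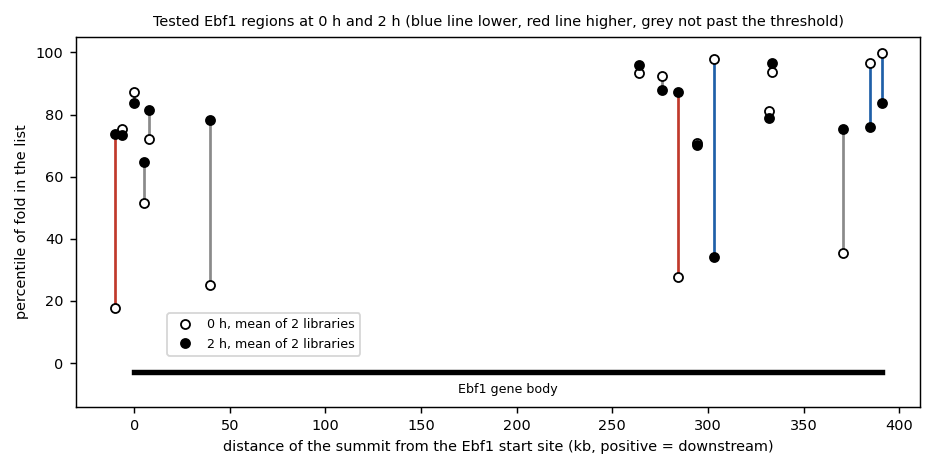
Percentile of peak fold at 0 h (open) and 2 h (filled), each the mean of 2 libraries, for the 16 ranked Ebf1 regions by distance from the start site in kb. The 3 lower regions (blue) and 1 of the 2 higher regions (red) lie in the 3′ stretch beyond 264.2 kb, and the other higher region lies upstream of the start.

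At Pax5, which encodes the commitment factor, 1 of 9 ranked regions was called. Pax5-32 (chr4:44727639-44727838), 17240 bp upstream of the start, was at percentiles 73.9 and 85.1 before treatment, 74.7 and 59.0 after 30 min, 27.3 and 3.5 after 1 h, and 12.9 and 19.1 after 2 h. Its summit held 33 and 36 fragments before treatment, 27 and 17 after 30 min, 10 and 6 after 1 h, and 7 and 8 after 2 h. The 0 h and 30 min libraries overlapped in percentile, and both times lay above 1 h and 2 h, with shifts of −0.65 ± 0.37 at 30 min (adjusted p = 0.379), −2.62 at 1 h (adjusted p = 0.00346) and −2.34 at 2 h (adjusted p = 0.00338). The tall region Pax5-34, with its summit 18721 bp upstream, had percentiles from 82.3 to 96.7, with 67 and 56 fragments before treatment, against 27 and 36 after 2 h (shift −0.70 ± 0.32, adjusted p = 0.150). It was called lower on recovered fragments (adjusted p = 0.00711), but not by −log10 p-value or by ranks among all peaks of a list.

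Around the 5′ end of Pax5 the local background was high. At the ranked Pax5 regions the median local background was 16.5 to 21.3 times the background of the library, and at Pou2af1 12.4 to 15.4 times, beside 2.31 to 2.52 times over all ranked regions. Peaks there had low percentiles of fold for their number of fragments. Pax5-19 (chr4:44702320-44702525), an intronic region 360 bp from the start of the non-coding gene 5730488B01Rik, had 47 and 31 fragments at 0 h but percentiles of 24.7 and 25.9, and was absent from all 6 treated lists. Its absence means that no peak was called there, and its fragments in those libraries are not known. Pax5-21, 5104 bp into the gene, had 85 and 72 fragments before treatment, against 53 and 37 after 2 h (shift −1.11 ± 0.28, adjusted p = 0.0234), and Pax5-23, at 4251 bp, had 116 and 81 before treatment, against 61 and 50 after 2 h (−1.03 ± 0.30, adjusted p = 0.0366). Neither passed the threshold on the rank of fold, by −log10 p-value, by ranks among all peaks of a list or with regions in at least 2 lists. Both did on recovered fragments, which do not use the local background (adjusted p = 0.00575 and 0.00741). That scale called more regions in general, 9.37% of all lower at 2 h, beside 4.71% on the rank of fold. The part of the local background in these calls was not tested. Pax5-24, at 1215 bp, had the largest rise of the locus (0.73 ± 0.32, adjusted p = 0.132), with 51 and 39 fragments before treatment, against 58 and 61 after 2 h.

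**Figure D4:**
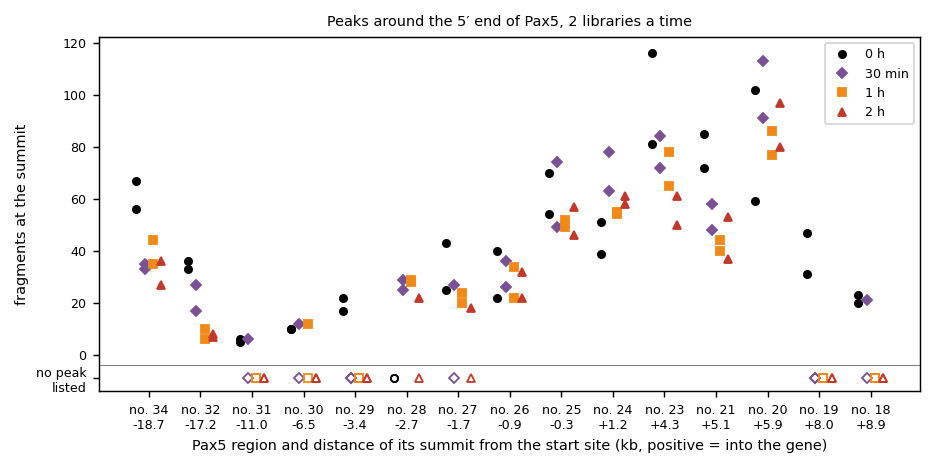
Fragments at the summit in each library for Pax5 regions within 20 kb upstream and 12 kb into the gene that had a peak in at least 2 lists, with open symbols below the line where a list had no peak and the number is not known. Region 32 dropped from 33 and 36 fragments at 0 h to 7 and 8 at 2 h, and region 19 was listed only at 0 h.

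At Tcf3, which encodes the E proteins E12 and E47, 1 of 8 ranked regions was called. Tcf3-8 (chr10:80423647-80423858), in an intron 9864 bp from the gene's 5′ end, was at percentiles 55.7 and 64.0 before treatment, 80.5 and 80.0 after 30 min, 91.2 and 86.0 after 1 h, and 90.3 and 93.9 after 2 h. It had 11 fragments in each 0 h library, 21 and 19 after 30 min, 30 and 24 after 1 h, and 32 and 31 after 2 h. The treated libraries were all above those of 0 h, with a shift at 2 h of 1.35 ± 0.28 (adjusted p = 0.00923) that lost its call in each fit that left out a library. The largest fall at the locus was at Tcf3-12, 414 bp upstream of the start (−0.66 ± 0.26, adjusted p = 0.104). At Foxo1, whose product binds forkhead sites, none of 6 ranked regions was called. Foxo1-29, in an intron 75382 bp from the start, came closest, with percentiles of 80.6 and 83.3 before treatment, 96.9 and 96.6 after 30 min, 94.7 and 95.2 after 1 h, and 98.4 and 97.1 after 2 h. Its fragments went from 28 and 24 at 0 h to 80 and 65 at 2 h, and no treated library overlapped 0 h (1.21 ± 0.26, adjusted p = 0.0105). It was called in the fits by −log10 p-value (adjusted p = 0.00439), by ranks among all peaks of a list (0.00807), by recovered fragments (0.00123) and with a trended, robust prior (0.00121). Neither the fit with a replicate block nor the fit with regions in at least 2 lists called Foxo1-29. The largest fall at Foxo1 was at the intronic region Foxo1-27 (−0.88 ± 0.26, adjusted p = 0.0390).

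Irf8 and Irf4 encode the interferon regulatory factors of the pre-B transition. Irf8-10 (chr8:120747307-120747642), in an intron 11179 bp into Irf8, fell, and the annotation also places it in an intron of the overlapping gene Gm20388. Its percentiles were 94.5 and 97.9 before treatment, 75.9 and 71.5 after 30 min, 69.4 and 61.1 after 1 h, and 63.5 and 28.5 after 2 h. Fragments were 66 and 60 before treatment, 27 and 19 after 30 min, 21 and 17 after 1 h, and 19 and 9 after 2 h. Every treated library was below both 0 h libraries, with shifts of −1.51 ± 0.36 at 30 min (adjusted p = 0.0580), −1.89 at 1 h (adjusted p = 0.00952) and −2.50 at 2 h (adjusted p = 0.00218). The largest rise at Irf8 was at Irf8-12 (0.75 ± 0.26, adjusted p = 0.0664). At Irf4 none of 5 ranked regions passed the threshold. Their shifts at 2 h were all negative, from −0.99 to −0.24 with a median of −0.85, and Irf4-7, in an intron 12320 bp from the start, had the largest, from 19 and 13 fragments at 0 h to 11 and 9 at 2 h (−0.99 ± 0.27, adjusted p = 0.0286). All 5 stayed negative at 2 h with ranks by −log10 p-value, among all peaks of a list and by recovered fragments, which reuse the same lists. With regions in at least 2 lists, 6 of 8 Irf4 regions were negative (median −0.34). Over the genome 22336 of 47875 ranked regions had a negative shift at 2 h.

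Spib, which encodes an ETS factor, had no call among 4 ranked regions. The largest fall was at Spib-13, in an intron of the neighbouring gene Pold1, from 55 and 51 fragments at 0 h to 27 and 30 at 2 h (−1.01 ± 0.32, adjusted p = 0.0516), and the largest rise was at Spib-5, in an intron of Mybpc2 (0.53 ± 0.26, adjusted p = 0.178). At Pou2af1, Pou2af1-9 (chr9:51238794-51239211) fell, a region over an untranslated exon stretch 25262 bp from the start. It was at percentiles 98.2 and 94.7 before treatment, 84.2 and 86.5 after 30 min, 72.3 and 72.8 after 1 h, and 64.0 and 65.5 after 2 h. Fragments were 68 and 45 before treatment, 28 and 30 after 30 min, 19 and 17 after 1 h, and 15 and 14 after 2 h. The values of the 4 times did not overlap, and the region missed the threshold at 30 min (adjusted p = 0.0872), with shifts of −1.65 ± 0.28 at 1 h (adjusted p = 0.00584) and −1.96 at 2 h (adjusted p = 0.00210). Pou2af1-1, 18757 bp upstream, was the region of this locus with the largest rise, with 9 and 5 fragments before treatment, against 19 and 17 after 2 h (1.44 ± 0.38, adjusted p = 0.0254).

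**Figure D5:**
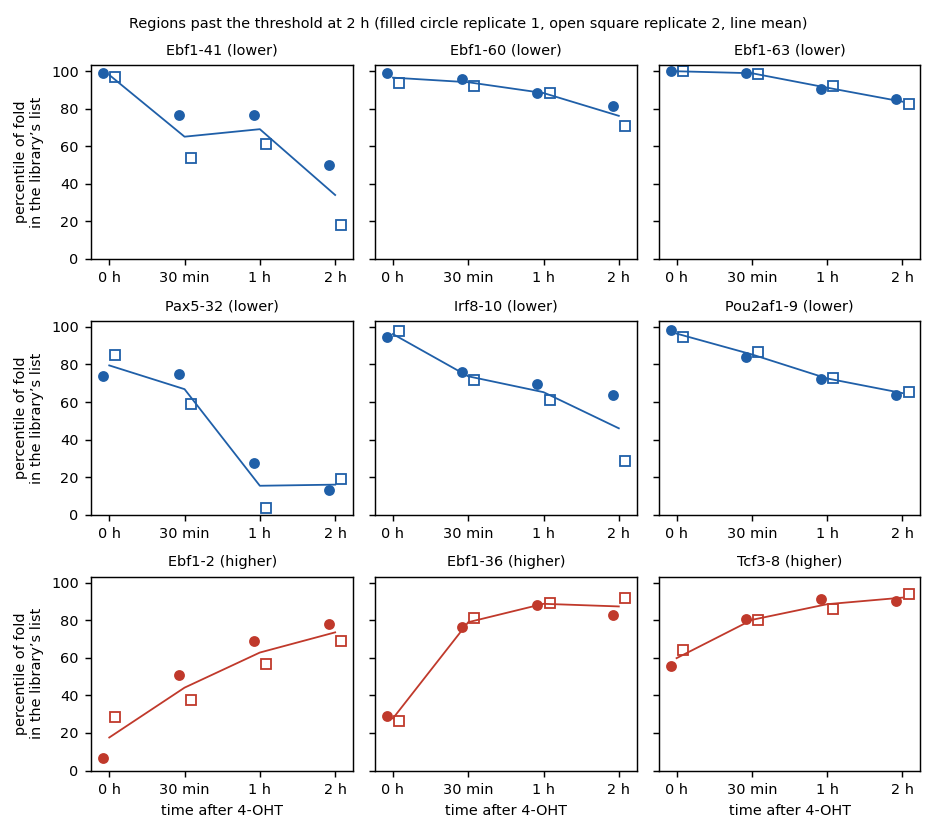
Percentile of peak fold in each library for the 9 regions past adjusted p < 0.01 at 2 h (filled circle replicate 1, open square replicate 2, line the mean of 2 libraries). Ebf1-41 and Irf8-10 were already lower in both libraries at 30 min, whereas Pax5-32 dropped to 27.3 and 3.5 at 1 h.

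At Lef1 none of 10 ranked regions was called, while 2 regions with over 20 fragments in both libraries were lost or gained by 2 h. Lef1-6 (chr3:131106754-131107227), 3388 bp upstream of the start, had 33 and 36 fragments at 0 h (percentiles 36.2 and 64.0), 14 and 10 at 30 min (5.88 and 0.425), and no peak at 1 h or 2 h. Lef1-7, separated from it by 75 bases, had 46 and 37 fragments before treatment, against 21 and 11 after 2 h (−1.55 ± 0.49, adjusted p = 0.0523). Lef1-15 (chr3:131117433-131117708), in an intron, had no peak before treatment, 18 fragments in each library after 30 min, 26 and 30 after 1 h, and 21 and 25 after 2 h. It lay 138 bases from Lef1-16, a tall region at percentiles from 88.9 to 98.1. The tallest Lef1 peak, Lef1-32, was between 98.5 and 99.5 in every library (−0.15, adjusted p = 0.740). The largest rise among ranked Lef1 regions was at Lef1-37, in an intron of the neighbouring gene Hadh (0.79 ± 0.48, adjusted p = 0.270).

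Presence and absence were counted over all 248 regions, without a test. Of the 95 member regions with a peak in both 0 h lists, 9 were lost at 30 min (9.47%, beside 10.9% of all such regions), 18 at 1 h (18.9%, beside 14.6%) and 18 at 2 h (18.9%, beside 16.6%). Of the regions with a peak in both lists of a treated time, those absent from both 0 h lists numbered 15 of 108 at 30 min (13.9%, beside 10.3%), 22 of 109 at 1 h (20.2%, beside 17.0%) and 12 of 100 at 2 h (12%, beside 20.5%). The losses at 2 h comprised 6 at Ebf1, 5 at Pax5, 3 at Irf8, 2 at Spib and 2 at Lef1. The gains comprised 4 at Ebf1, 3 at Lef1, 2 at Irf8 and 1 each at Tcf3, Foxo1 and Irf4. Over 20 fragments in both libraries were reached by 3 of the lost regions, Ebf1-35, Pax5-19 and Lef1-6, and by 1 of the gained, Lef1-15.

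A count added after the data were seen asked which regions differed at every treated time. In 9 of the 95 (9.47%, beside 8.30% of all) the peak was in both 0 h lists and in none of the 6 treated lists, namely Ebf1-33, Ebf1-44, Ebf1-52, Pax5-19, Pax5-29, Irf8-7, Irf8-15, Spib-6 and Lef1-22. Conversely, 4 of the 85 regions with a peak in all 6 treated lists (4.71%, beside 6.66%) had none at 0 h, and these were Ebf1-34, Foxo1-4, Irf8-9 and Lef1-15. Presence depends on depth and on the length of a list, and 0 h replicate 2, the library with the lowest background, had the fewest peaks. Without it the losses at 2 h were 31 of 248 members, beside 22820 of all 174718 regions (18 and 11581 with it). Without 0 h replicate 1 the gains at 2 h were 23 of 248, beside 23366 of all (12 and 16223 with it). Leaving out any library loosens the rule for lost and gained, so these counts could only stay or rise. They therefore do not measure an effect of depth.

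Other genes of the same network were counted in the same way. At 15 partners and antagonists of the factors, 146 regions were ranked, and 10 of these (6.85%) fell and 5 (3.42%) rose by 2 h, beside 4.71% and 2.28% of all. The lower regions lay at Tcf12, Foxp1 and Foxo3 (2 each) and at Bach2, Pou2f1, Zeb2 and Ikzf3, and the higher at Foxp1 (2), Bach2, Tcf12 and Pou2f2. An intronic region of Bach2, a repressor that acts in B cells, had 42 and 28 fragments before treatment, against 8 and 7 after 2 h (−2.65 ± 0.26, adjusted p = 0.000958). At Pou2f1, which encodes a partner of POU2AF1, an intronic region had 62 and 56 fragments before treatment, against 23 and 22 after 2 h (−1.83 ± 0.25, adjusted p = 0.00195). At Foxp1, an intronic region with 33 and 35 fragments before treatment, against 16 and 12 after 2 h was lower (−2.07 ± 0.29, adjusted p = 0.00209), while its neighbour went from 22 in each 0 h library to 62 and 54 (1.45 ± 0.27, adjusted p = 0.00638). At 8 known targets of EBF1 and PAX5, 46 regions were ranked and 1 was lower (2.17%), near Vpreb3, a gene of the pre-B receptor complex, from 84 and 67 fragments at 0 h to 25 and 23 at 2 h (−1.79 ± 0.32, adjusted p = 0.00520). None was higher at adjusted p under 0.01 in limma.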

How the data were processed

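ATAC-seq peaks of 8 libraries of B3 cells were analysed, 2 at each of 4 times. Per the labels and the study's methods, the authors used bcl2fastq 2.20.0, BWA 0.7.17 and deepTools 2.3.5 (ends shifted for the transposase, fragments up to 120 bp), and MACS2 2.1.2 on each library alone without a control. The methods name a human build for the alignment, but the labels give GRCm38 and no peak passed the end of any of its 21 chromosomes. The deposited lists hold the fold of pileup over local background (a ratio, with the added constant given above), −log10 p-value and −log10 q-value, and summit positions. Short fragments leave out wider open DNA, and lists called alone are not scaled to each other.

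Fragments at the summit were recovered as the whole number that gives the deposited −log10 p-value within 0.001, which held for 100.0% of peaks. Median peaks had 11 to 14 fragments, which limits precision. A Poisson count covers counting error only. The test used limma 3.58.1 in R 4.3.3 (lmFit, eBayes) and was tested on simulated data.

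Named regions were those past adjusted p under 0.01 at 2 h, the start-site region, and lost or gained regions with over 20 fragments. The largest fall and rise of each gene, taken among its ranked regions only, were named too. Others (Ebf1-15, Ebf1-31, Ebf1-50, Pax5-21, Pax5-23, Pax5-34, Foxo1-29, Lef1-16, Lef1-32 and the regions of other genes) were chosen after their values were seen. The members and lists were chosen with earlier results of these data known. Promoter regions had a start site of GENCODE M21 (basic set) inside the region or within 1 kb of its edges. Alternatives covered the scale of height, filters, merging, flanks of 5 and 50 kb, the prior, a replicate block and each library left out. The separate value of 1 marker is not reported here.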

Additional observations from a re-analysis of the deposited data

How the results depend on the processing

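Apart from left-out libraries, 8 other settings were run. At a −log10 q of at least 5, Ebf1-2, Ebf1-36, Ebf1-41 and Pax5-32 were no longer ranked, which left 7 for these regions. The call was kept in all 8 for Ebf1-63, Irf8-10 and Pou2af1-9, and in the 7 that ranked them for Ebf1-36 and Ebf1-41. It was kept in 6 of 7 for Pax5-32, 6 of 8 for Ebf1-60, 5 of 7 for Ebf1-2 and 5 of 8 for Tcf3-8. No alternative reversed a shift among the 9, but these regions were picked by the main fit. The replicate block, the prior, and leaving out a library of 30 min or 1 h hardly alter the difference between 2 h and 0 h, so those fits could hardly show a reversal. The cause of lost calls was not tested, but a fit without a library leaves 1 sample at a time, assumed to vary like the others. Leave-one-out fits gave 0 to 5 lower and 0 to 1 higher members at 2 h (up to 3.97% and 1.79% of all regions), and 0 to 3 lower and 0 to 1 higher at 1 h (up to 1.96% and 0.771%). On recovered fragments (log2, centred) 11 members fell and 7 rose by 2 h (15.7% and 10.0%, beside 9.37% and 5.43% of all), 8 fell and 5 rose by 1 h (11.4% and 7.14%, beside 6.63% and 3.48%), and 1 fell by 30 min (1.43%, beside 1.3%). With regions in at least 2 lists, absent peaks being scored lowest, there were 13 lower at 2 h (7.60%, beside 6.27%), and 8 lower and 3 higher at 1 h (4.68% and 1.75%, beside 4.33% and 1.33%), among 171 members. Ranks among all peaks of a list gave 5 higher at 2 h (7.14%, beside 2.50%) and 1 lower at 1 h (1.43%, beside 1.02%), and the median of all regions rose by 0.17 on that scale at 2 h. At adjusted p under 0.05 10 fell and 8 rose by 2 h (14.3% and 11.4%, beside 11.1% and 8.34%), 10 fell and 6 rose by 1 h (14.3% and 8.57%, beside 8.18% and 5.74%), and 1 fell and 1 rose by 30 min (1.43% each, beside 1.49% and 0.702%). The trended, robust prior gave 3 higher at 1 h (4.29%, beside 3.10%) and 1 in each direction at 30 min (1.43%, beside 0.437% lower and 0.328% higher). A −log10 q of at least 5 gave 0 higher at 1 h (beside 1.46%), and a flank of 50 kb gave 2 (1.83%, beside 1.10%).

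The labels do not say whether same-numbered libraries share a culture or day, and they were not treated as pairs in the main fit. Deviations of same-numbered libraries correlated at 0.01722 to 0.04029 across regions. This cannot decide the question, because counting error in peaks of few fragments can hide a shared deviation. With the replicate block 3 members were lower at 1 h (4.29%, beside 1.88% of all) and 1 was higher at 2 h (1.43%, beside 1.80%), against 5 and 3 without it, and the 6 lower regions at 2 h were the same.

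Counts of lost and gained regions can only stay or rise when a library is left out, because the rule is then looser. Leaving out 1 library gave 11 to 25 lost members at 30 min (4.44% to 10.1% of 248, beside 5.60% to 10.4% of all regions). Without 1 library there were 19 to 32 at 1 h (7.66% to 12.9%, beside 7.21% to 12.1%) and 20 to 31 at 2 h (8.06% to 12.5%, beside 8.19% to 13.1%). Gained members numbered 21 to 35 at 30 min (8.47% to 14.1%, beside 6.02% to 12.8%) and 26 to 46 at 1 h (10.5% to 18.5%, beside 9.42% to 16.8%). At 2 h they numbered 17 to 43 (6.85% to 17.3%, beside 11.4% to 18.2%). Lists cut to equal length gave 12 gained at 1 h (5.77%, beside 6.72%), and a flank of 50 kb 34 gained at 1 h (9.69%, beside 7.44%) and 22 at 2 h (6.27%, beside 9.29%).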
